A study of Mus musculus with 16 samples.

Results

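Transcripts of 10 core circadian clock genes were followed in lungs, heart and skin fibroblasts of mice without nuclear myosin 1 (NM1) and of wild-type mice. The genes were Per2, Per3, Arntl, Clock, Npas2, Nr1d1, Nr1d2, Dbp, Bhlhe40 and Nfil3, genes of the textbook clock loop. All probe sets annotated to exactly 1 of them were used, which gave 20 probe sets for 9 of the 10 genes, out of 45037 probe sets for 17097 genes. Nr1d1 was not analysed here, because no probe set was annotated to it alone. For each gene the probe set with the highest mean over the arrays stands for the gene. The other 11 probe sets, dimmer on average, are taken up after the genotype comparison.

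The samples came from NM1 knock-out (KO) and wild-type (WT) mice and were hybridised to 16 Affymetrix arrays, 1 per sample. Lungs and heart were taken from the same 6 mice, KO 1602, 1603 and 1586 and WT 1592, 1624 and 1593. Fibroblasts derived from skin carried other mouse numbers, KO 1584 and 1550 and WT 1571 and 1623. Every number was taken to be a different animal. In the main model (limma), p-values set a difference against the spread of samples within groups, pooled over the 3 tissues. Lungs and heart of a mouse count there as separate samples. No treatment is named in the labels. As for the allele, strain, age and sex of the mice, the hour at which tissue was taken and the handling of the fibroblast cultures, none is stated in the sources used here. Values are log2 signals, and a difference of 1 is a factor of 2. Since probes differ in how well they bind, a level is compared only with the same gene's level in other samples.

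The clock of mammalian cells is a transcriptional feedback loop. CLOCK or NPAS2 pairs with BMAL1, the product of Arntl, and the pair activates genes through E-box sequences, among them the Per, Cry, Nr1d, Dbp and Bhlhe40 genes. PER and CRY proteins and BHLHE40 then restrain the pair, while NR1D1 and NR1D2 repress Arntl, Clock, Npas2 and Nfil3. DBP activates and NFIL3 represses genes through D-box sequences. In rhythmic tissues such as lungs and heart the E-box targets and Arntl therefore peak at opposite times of day.

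The promoters of these genes were searched for the elements named above. RefSeq promoter windows of 300 bases (assembly GRCm38.p6, 250 bases before to 50 after a start) were found for 8 of the 10 genes and searched on both strands for CACGTG (the E-box), CACGTT, TTATGTAA (the D-box), AGGTCA and TAGGTCA (the last 2 being cores of the element bound by NR1D and ROR proteins, and the first of them lying within the second). Of 32851 windows over all genes, 7.15% held CACGTG, 4.68% CACGTT, 0.938% TTATGTAA, 16.3% AGGTCA and 2.61% TAGGTCA. None of the 8 genes held CACGTG in its windows, and the E-box stretches shown are those of a pair of other loop genes. The following stretches are shown because each holds a motif that was searched for, written 5′ to 3′ on the gene's strand with the matches in capitals.
Per3 (chr4:151044796-151044890, minus strand, 2 D-boxes starting 205 and 158 bases before the start): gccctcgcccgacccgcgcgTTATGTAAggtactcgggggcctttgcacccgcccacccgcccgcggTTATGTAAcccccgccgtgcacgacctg
Nfil3 (chr13:52981040-52981071, minus strand, TAGGTCA read on the opposite strand, 12 bases before the start): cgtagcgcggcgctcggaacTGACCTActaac
Arntl (chr7:113207530-113207558, plus strand, TAGGTCA from base 31 after an annotated start): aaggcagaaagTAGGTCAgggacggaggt
Ciart (chr3:95882247-95882364, minus strand, 3 E-boxes starting 116, 58 and 44 bases before the start): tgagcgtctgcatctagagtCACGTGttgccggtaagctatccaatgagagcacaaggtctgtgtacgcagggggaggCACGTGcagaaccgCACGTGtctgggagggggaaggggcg
Tef (chr15:81802526-81802571, plus strand, 1 E-box starting 127 bases before the start): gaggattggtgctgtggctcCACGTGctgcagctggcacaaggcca
Ciart, a repressor of the CLOCK and BMAL1 pair, and Tef, a relative of Dbp, are clock genes outside the 10 that are described with them below. Of the E-box genes on the list, Per3 held D-boxes alone, Dbp none of the motifs and Nr1d2 AGGTCA alone, while Per2 and Bhlhe40 had no window in the table. The window of Npas2 held none, Clock held AGGTCA alone, and Nr1d1 held CACGTT alone. A match is a description of the letters and not evidence of a bound site.

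Before the genes themselves, the samples were checked against their labels. Array medians lay between 3.65 and 3.93, and arrays of a tissue correlated with r from 0.947 to 0.993 across probe sets. Mean levels of lung markers in lungs (13.6 to 13.9), heart muscle markers in heart (13.5 to 13.7) and fibroblast markers in fibroblasts (8.23 to 9.07) went with the labels. Myo1c, the gene that encodes NM1, was lower in every KO than in every WT sample of its tissue, at 9.20 to 9.85 against 10.30 to 10.95 in lungs, 8.29 to 8.53 against 9.18 to 9.31 in heart, and 8.65 and 8.73 against 9.82 and 10.20 in fibroblasts, and its probe sets do not tell its isoforms apart. The array of KO heart 1602 stood apart, with an upper quartile of 5.63 against 6.17 to 6.31 in the other hearts. Adipocyte markers averaged 10.3, 10.9 and 8.71 in lungs of KO 1603, KO 1586 and WT 1592 but 5.54 to 5.82 in the other lungs. Atrial muscle markers averaged 5.47 and 6.30 in heart of KO 1602 and KO 1586 but 10.3 to 12.2 in the other hearts.

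The levels of most clock genes differed between organs and fibroblasts in WT mice. Per2 and Per3, the period repressors, Nr1d2, the nuclear receptor that represses Arntl, and Dbp were all higher in lungs and in heart than in fibroblasts, while Arntl and Nfil3 were lower in both organs. In the limma model of all probe sets, 7 of the 9 measured genes passed an adjusted p of 0.05 (the threshold used throughout) between lungs and fibroblasts and 6 of 9 between heart and fibroblasts. Among all probe sets tested, 60.1% and 63.8% passed, so such a share was common to the whole array. These are bulk samples, in which fewer cells of a type and less RNA per cell cannot be told apart. Fibroblasts also came from other mice and from culture, and the hour of sampling is not stated. Between organs and fibroblasts, tissue, culture and clock phase therefore cannot be told apart.

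Per2 had the widest range of the E-box genes. Its WT level was 7.80, 7.99 and 8.24 in lungs of mice 1592, 1624 and 1593, 6.41, 6.44 and 7.08 in their hearts, and 4.15 and 4.51 in fibroblasts 1571 and 1623. The order lungs, heart, fibroblasts held without overlap, with lungs 1.37 above heart (SE 0.34, adjusted p = 0.00342) and heart 2.32 above fibroblasts (SE 0.38, adjusted p = 0.000119). The mean of both Per2 probe sets gave 1.35 for heart over fibroblasts (adjusted p = 0.0017). A second Per2 probe set had the same order, although its WT mean in heart was only 3.44.

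Per3 was at 8.49, 8.57 and 8.13 in WT lungs, 7.34, 7.72 and 7.58 in WT heart, and 6.08 and 5.74 in WT fibroblasts. It too was higher in both organs than in fibroblasts, 5.61-fold in lungs (adjusted p = 0.000168) and 3.12-fold in heart (adjusted p = 0.00348). All WT lungs lay above all WT hearts, but the difference of 0.85 missed the threshold (SE 0.37, adjusted p = 0.0641). It passed with the mouse as a fixed block on the WT lungs and heart arrays alone, which are paired (adjusted p = 0.00327). It also passed after quantile normalization (0.046) and on the mean of the 5 Per3 probe sets (0.0225). With a random mouse block over all arrays it did not. A pair of other Per3 probe sets, both well above the median in organs, passed between lungs and heart, at 1.06 (adjusted p = 0.044) and 0.85 (adjusted p = 0.0389).

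Nr1d2 and Dbp set both organs apart from fibroblasts but not from each other. Nr1d2 averaged 10.63 ± 0.04 in WT lungs and 10.59 ± 0.09 in WT heart (SD, n = 3) against 8.90 ± 0.22 in WT fibroblasts (SD, n = 2), 3.32-fold and 3.22-fold higher (adjusted p = 7.8e-07 and 6.9e-07). The mean of both Nr1d2 probe sets gave 0.85 for lungs over fibroblasts in place of 1.73, with an adjusted p of 0.00502. Dbp averaged 9.13 ± 0.23 in lungs and 9.31 ± 0.20 in heart (SD, n = 3) against 6.67 ± 0.24 in fibroblasts (SD, n = 2), 5.48-fold and 6.22-fold higher (adjusted p = 8.2e-06 and 3e-06). Lungs and heart differed by 0.045 for Nr1d2 (95% interval -0.27 to 0.36) and by -0.18 for Dbp (-0.75 to 0.38), and neither passed the test.

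Bhlhe40, a repressor that binds E-boxes, went the other way between organ and culture, at 8.79 ± 0.17 in WT lungs, 8.96 ± 0.26 in WT heart (SD, n = 3) and 9.41 ± 0.06 in WT fibroblasts (SD, n = 2). It was 0.62 lower in lungs than in fibroblasts (SE 0.21, adjusted p = 0.0231). That call was lost without WT lungs 1593 (-0.53, adjusted p = 0.0756), without WT fibroblasts 1571 (-0.66, 0.0657) or 1623 (-0.57, 0.112), and after quantile normalization (-0.51, with an adjusted p just above the threshold). The difference between heart and fibroblasts, -0.45, did not pass (adjusted p = 0.0806), and without WT heart 1593 it was -0.60 and passed (0.034).

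Arntl, which encodes BMAL1, was at 3.60, 3.51 and 3.76 in WT lungs, 4.04, 3.89 and 4.61 in WT heart, and 6.76 and 6.85 in WT fibroblasts. Both organs lay far below fibroblasts, 9.04-fold for lungs (adjusted p = 0.000102) and 6.17-fold for heart (adjusted p = 0.000416). The lungs mean fell below the median of all values, 3.79, so the size of the first difference is uncertain, and the mean of both Arntl probe sets gave differences of -1.85 and -1.62. Each WT heart was above each WT lung for Arntl, but the difference of 0.55 did not pass in the main limma fit (adjusted p = 0.302). Of the alternatives, only limma on the WT lungs and heart arrays alone, with the mouse as a fixed block, called it (adjusted p = 0.0139). With a random mouse block over all arrays it did not pass.

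Clock and Npas2 encode the partners of BMAL1. Clock varied little, averaging 7.43 ± 0.17 in WT lungs, 7.20 ± 0.24 in WT heart (SD, n = 3) and 7.73 ± 0.04 in WT fibroblasts (SD, n = 2), with no comparison passing. Heart against fibroblasts, at -0.53, passed in a fit of those arrays alone (adjusted p = 0.0248 against 0.0869). A dim probe set of Clock passed in the full model, at -0.90 (0.00493), and also between lungs and fibroblasts at -0.66 (0.0278). Its WT means in lungs (3.90) and heart (3.67) were near the median of all values, 3.79, and its WT fibroblasts were at 4.99 and 4.14. The remaining Clock probe sets averaged 6.87 and 6.06 in WT lungs, 6.53 and 6.01 in WT heart, and 6.73 and 6.18 in WT fibroblasts. Npas2 lay near or under the median of all values in both organs, at 3.38 ± 0.65 and 3.39 ± 0.42 (SD, n = 3), and at 3.96 ± 0.33 in fibroblasts (SD, n = 2). Its difference between lungs and fibroblasts was -0.58 (adjusted p = 0.134) and passed without WT lungs 1592 (-0.96, adjusted p = 0.00739).

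Nfil3, the repressor of D-box genes, had the widest spread between tissues of the 9 genes. It was at 4.53, 4.36 and 4.26 in WT lungs, 5.45, 5.16 and 5.48 in WT heart, and 8.75 and 8.76 in WT fibroblasts. The 3 tissues did not overlap. Lungs were 20.7-fold below fibroblasts (adjusted p = 4.9e-11) and 1.97-fold below heart (adjusted p = 3.1e-05), and heart was 10.5-fold below fibroblasts (adjusted p = 4.2e-10). Between lungs and heart 2 of 8 tested clock genes passed, Per2 higher and Nfil3 lower in lungs, against 60.2% of all probe sets.

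**Figure D1:**
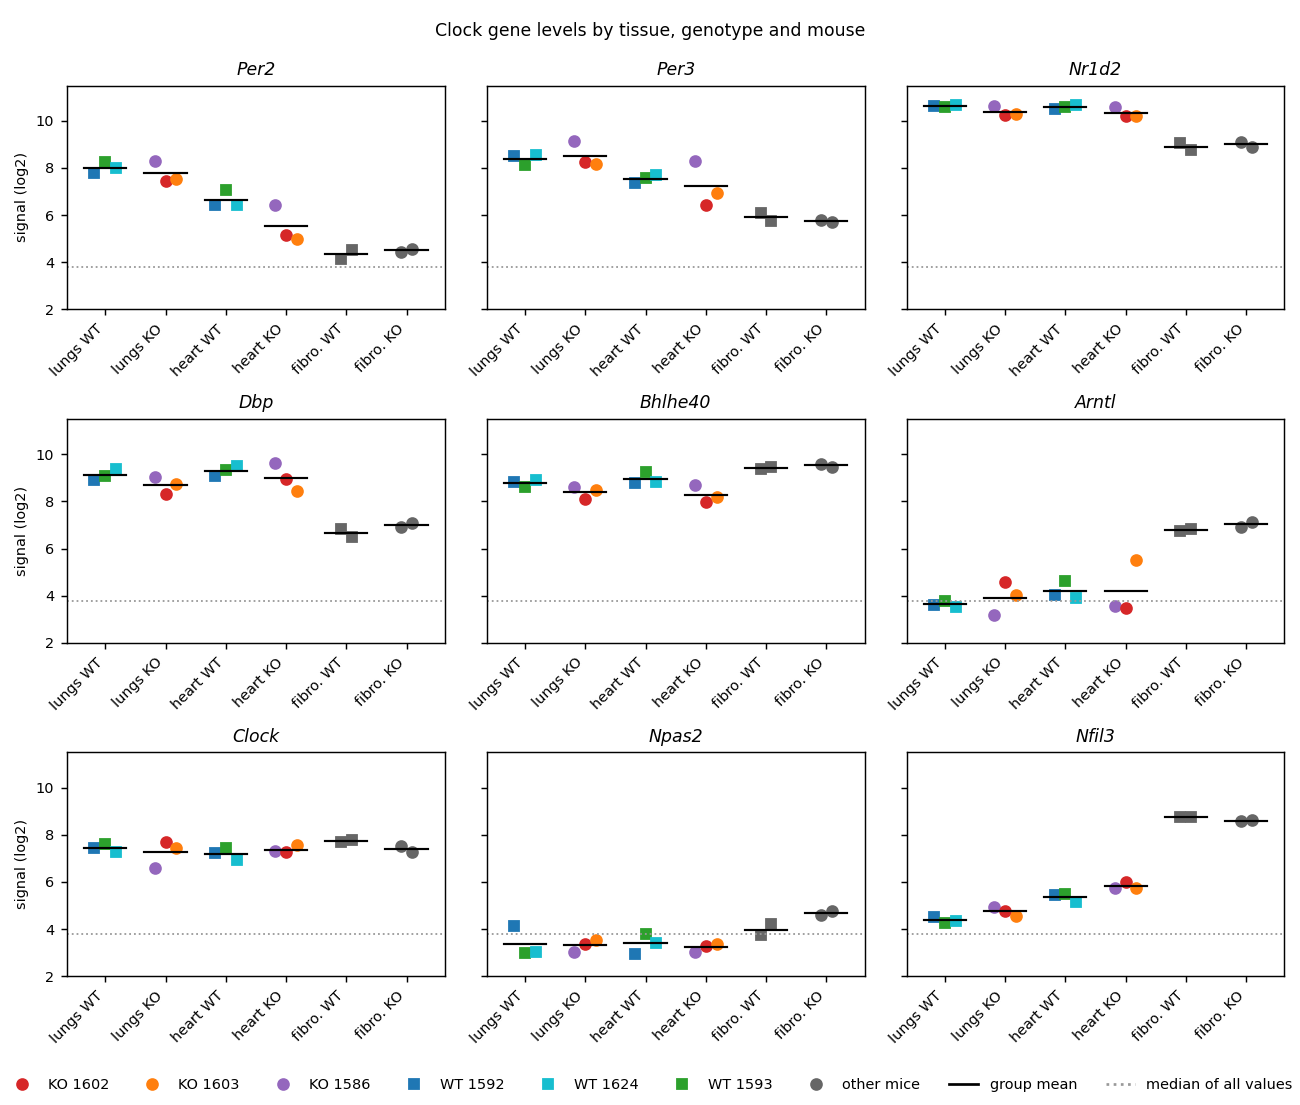
Level of each measured clock gene (log2 signal, 1 panel per gene) in every array, by tissue and genotype, with 1 point per sample. Per2, Per3, Nr1d2 and Dbp were higher in lungs and heart than in fibroblasts, Arntl and Nfil3 were lower, and the KO points of Per2 and Per3 in heart spread more widely than the WT points.

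The KO was then compared with WT to ask what loss of NM1 does to these genes in each tissue. None of the clock genes passed the test in any tissue. In limma, 0 of 7 tested genes were called in lungs, 0 of 8 in heart and 0 of 9 in fibroblasts, where 0.0301%, 0.127% and 0.0549% of all probe sets were called. At an unadjusted p under 0.05 there was 1 in lungs (Nfil3), 3 in heart (Bhlhe40, Nfil3 and Per2) and 0 in fibroblasts, against 6.96%, 17% and 3.33% of all probe sets. When lungs and heart were averaged per mouse, so that the mouse is the unit, 0 of 8 genes passed (0.00857% of all probe sets) and 2 had an unadjusted p under 0.05 (Nfil3 and Bhlhe40, against 13.9%). No other tool was run. The median difference of the 9 genes was -0.17 in lungs, -0.26 in heart, 0.12 in fibroblasts and -0.11 on the organ mean, beside -0.06, -0.16, 0.02 and -0.10 over all probe sets tested.

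Per2 in heart showed the greatest difference of the 9 genes. KO hearts 1602, 1603 and 1586 were at 5.13, 4.98 and 6.45, and WT hearts 1592, 1624 and 1593 were at 6.41, 6.44 and 7.08. A pair of KO hearts lay below every WT heart, and KO 1586 lay among the WT values. The difference was -1.12 (SE 0.34, 95% interval -1.86 to -0.39), or 2.18-fold, with an adjusted p of 0.156. It passed without KO heart 1586 (-1.59, adjusted p = 0.0286) and was -0.93 without KO heart 1602 (0.426), while the mean of both Per2 probe sets gave -0.59. In lungs the same KO mice were at 7.44, 7.55 and 8.32 and the WT mice at 7.80, 7.99 and 8.24, a difference of -0.24 (95% interval -0.98 to 0.49). The genotype differences in lungs and heart were 0.88 apart (SE 0.48, adjusted p = 0.724), so a difference between the organs was not shown. Of 8 genes tested for such a difference in limma, 0 passed (0% of all probe sets) and 0 had an unadjusted p under 0.05 (7.22% of all probe sets).

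By their representative probe sets, Bhlhe40 and Nfil3 were the clock genes whose KO and WT values did not overlap in lungs, and the same 2 in heart. Bhlhe40 was at 8.09, 8.47 and 8.60 in KO lungs and 8.85, 8.92 and 8.60 in WT lungs, where KO 1586 and WT 1593 agree to 2 decimals, with the KO value the lower. Hearts were at 7.99, 8.18 and 8.68 (KO) and at 8.77, 8.85 and 9.25 (WT). The differences were -0.40 (SE 0.19, adjusted p = 0.711) and -0.67 (SE 0.19, adjusted p = 0.139). Values that did not overlap and were lower in KO were found for 6.46% of all probe sets in lungs and 13.7% in heart.

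Nfil3 was the reverse, at 4.76, 4.55 and 4.94 in KO lungs against 4.53, 4.36 and 4.26 in WT lungs. Hearts were at 6.02, 5.73 and 5.74 (KO) and at 5.45, 5.16 and 5.48 (WT). The differences were 0.36 (SE 0.14, adjusted p = 0.711) and 0.47 (SE 0.14, adjusted p = 0.145), and such values higher in KO were found for 5.08% and 3.91% of all probe sets. On the organ mean Nfil3 was at 5.29 ± 0.13 in KO and 4.87 ± 0.12 in WT (SD, n = 3), a difference of 0.42 (95% interval 0.15 to 0.68, adjusted p = 0.297). Bhlhe40 was at 8.33 ± 0.30 and 8.87 ± 0.06 (SD, n = 3), a difference of -0.54 (-0.90 to -0.17, adjusted p = 0.297). Without KO heart 1602 the heart differences were 0.37 for Nfil3 and -0.52 for Bhlhe40, both with an adjusted p of 0.391.

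Dbp and Nr1d2 had lower means in KO organs, and neither passed. Dbp was at 8.30, 8.73 and 9.05 in KO lungs against 8.93, 9.37 and 9.08 in WT, and at 8.95, 8.43 and 9.62 in KO heart against 9.10, 9.49 and 9.35 in WT. KO 1602 and 1603 lay below all WT mice in both organs, and KO 1586 was the highest of all hearts. The differences were -0.43 (adjusted p = 0.73) and -0.31 (adjusted p = 0.557). They depended on single KO arrays, with lungs at -0.24 without KO 1602 and heart at -0.028 without KO 1603 and -0.62 without KO 1586. Nr1d2 was at 10.26, 10.31 and 10.63 in KO lungs against 10.63, 10.68 and 10.60 in WT, with the hearts at 10.19, 10.20 and 10.60 against 10.50, 10.67 and 10.60. Its differences were -0.24 and -0.26 (adjusted p = 0.73 and 0.379), and the mean of both Nr1d2 probe sets gave 0.023 in lungs.

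For the representative probe sets of Per3, Arntl, Clock and Npas2 the KO and WT values overlapped in both organs. Leaving out single arrays turned the sign of the difference in both organs for Per3, Arntl and Npas2, and in lungs for Clock, whose difference in heart (0.18) turned to -0.063 on the mean of its 4 probe sets. Per3 was at 6.44, 6.93 and 8.30 in KO hearts against 7.34, 7.72 and 7.58 in WT hearts, so that the KO mice held both the lowest values and the highest. Arntl was at 3.49, 5.49 and 3.57 in KO hearts against 4.04, 3.89 and 4.61 in WT hearts, and in lungs at 4.57, 4.03 and 3.16 against 3.60, 3.51 and 3.76. The KO again enclosed the WT range in both organs. Clock was at 7.71, 7.45 and 6.60 in KO lungs against 7.43, 7.26 and 7.60 in WT lungs, with KO 1586 the lowest. Npas2 was at 3.37, 3.55 and 3.02 in KO lungs against 4.13, 3.03 and 2.98 in WT lungs, levels near the low end of the array.

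In fibroblasts, KO samples 1584 and 1550 and WT samples 1571 and 1623 differed little for most of the 9 genes. By the representative probe sets, values did not overlap for 5 of them, where 32.5% of all probe sets did not overlap with 2 samples a group. Arntl (7.13 and 6.92 against 6.76 and 6.85), Dbp (7.07 and 6.93 against 6.85 and 6.50) and Npas2 (4.79 and 4.60 against 3.73 and 4.20) were higher in KO. Clock (7.26 and 7.51 against 7.70 and 7.76) and Nfil3 (8.62 and 8.58 against 8.75 and 8.76) were lower. Every adjusted p was 1.0, and the greatest difference was that of Npas2, 0.73 (95% interval -0.03 to 1.49). Nfil3 thus had the opposite sign in fibroblasts to that in lungs and heart, and these contrasts of the genotype effects did not pass (adjusted p = 0.987 and 0.539).

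The other probe sets of these genes did not always share the sign of the representative one, and none of those tested was called between genotypes (7 of the 11 were tested in lungs, 5 in heart and 5 in fibroblasts). The second Per2 probe set was at 0.14 in lungs, -0.046 in heart and 0.049 on the organ mean, against -0.24, -1.12 and -0.68. That of Nr1d2 was at 0.28 in lungs and -0.082 in heart, against -0.24 and -0.26. Of the other Clock probe sets, 1 was at 0.36 in lungs, against -0.17, and all 3 were below 0 in heart, against 0.18.

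A dim Per3 probe set, with means under the median of all values in KO lungs (3.35) and in both groups of hearts, did not overlap in lungs. It was at 3.20, 3.17 and 3.70 in lungs of KO 1602, 1603 and 1586 and at 3.79, 4.19 and 3.79 in those of WT 1592, 1624 and 1593, a difference of -0.57 (limma, unadjusted p = 0.00569), and it was not kept by the filter. The other 3 Per3 probe sets besides the representative were at -0.17, -0.074 and 0.35 in lungs.

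**Figure D2:**
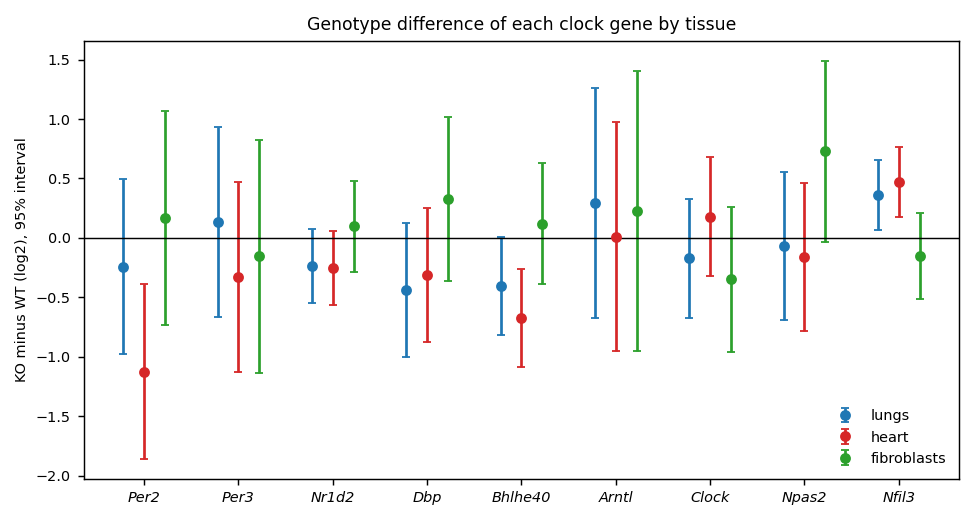
Difference between KO and WT of each measured clock gene (log2, vertical axis) in lungs, heart and fibroblasts, as the limma estimate with its 95% interval. Per2 in heart lies at -1.12, and the intervals of Bhlhe40 in heart and Nfil3 in lungs and heart also leave out 0, none of them with an adjusted p under the threshold.

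The 3 KO mice differed among themselves more than the WT mice did in most of these genes. For the average of both organs the SD over KO mice against that over WT mice was 0.738 against 0.151 for Per3, 0.64 against 0.294 for Per2, 0.698 against 0.251 for Arntl, 0.424 against 0.208 for Dbp, 0.218 against 0.0595 for Nr1d2 and 0.301 against 0.0589 for Bhlhe40. It was 0.317 against 0.207 for Clock and 0.228 against 0.164 for Npas2. Nfil3, at 0.133 against 0.115, was the nearest to equal of the 9 genes. The difference in spread was not tested, with 3 mice on each side.

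Lungs and heart of the same mouse were next set against each other, gene by gene. Pearson's r between lungs and heart over the 6 mice was above 0 for 8 of the 9 genes. It was above 0 for all 7 genes kept in both organs, against 59.7% of all probe sets kept there. For the 7 genes kept in both organs the median r was 0.72, and over all 20369 kept probe sets it was 0.12. No gene passed adjustment over the 9 relations by the exact permutation test of all 720 pairings, and 2 genes, Per2 and Nr1d2, had an unadjusted p under 0.05. The points share their mice and their 2 genotype groups, so r was also taken after the genotype means were removed. There 8 of 9 were again above 0, a count for which no share over all probe sets was computed. The 36 pairings within genotype cannot give a p below 0.0278.

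Per2 gave r = 0.88 and rho = 0.89 over 6 mice (exact permutation p = 0.0403 and 0.0333, adjusted 0.181 and 0.15). Without mice 1602 and 1586, the farthest from the median in lungs, r was 0.94, with KO 1603 still included. With genotype means removed r was 0.97 over the 6 mice (exact permutation p = 0.0833, adjusted 0.375). The second Per2 probe set, not kept in both organs, gave r = 0.62. By the representative Per2 probe set, KO 1602 and 1603 were the lowest 2 mice in both organs. Their hearts, at 5.13 and 4.98, stood apart from 6.41 to 7.08 in the other mice. For the representative Nr1d2 probe set no r is given, since the same 2 mice formed a cluster of their own, at 10.19 to 10.31 in both organs, apart from 10.50 to 10.68 in the other 4. All 6 mice lay on the same side of the mean in both organs for this Nr1d2 probe set. Its second probe set gave r = -0.35, and the mean of both gave 0.20 (exact permutation, adjusted p = 0.794).

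Per3 gave r = 0.75 and rho = 0.60 (exact permutation p = 0.0931 and 0.242, adjusted 0.203 and 0.311). That relation rested on KO 1586, the highest in lungs (9.14) and in heart (8.30), since r was 0.40 without this mouse. Other Per3 probe sets gave 0.79 and 0.58 where kept in both organs, and 0.26 and 0.75 where not. Bhlhe40 gave r = 0.72 and rho = 0.83 (exact permutation p = 0.0931 and 0.0583, adjusted 0.203 and 0.175), and 0.40 without the 2 mice farthest from the median, 1602 and 1624. With genotype means removed it was 0.30 for Bhlhe40 and 0.07 for Nfil3, whose pooled values were r = 0.70 and rho = 0.77 (exact permutation p = 0.113 and 0.103, adjusted 0.203 and 0.185). Dbp gave r = 0.64 and rho = 0.77 (exact permutation p = 0.174 and 0.103, adjusted 0.26 and 0.185), and 0.95 without mice 1602 and 1624.

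The genes of the BMAL1 arm did not follow this pattern by their representative probe sets, of which those of Arntl and Npas2 were not kept in both organs. Arntl gave r = 0.14 and rho = 0.14 (exact permutation p = 0.772 and 0.803, adjusted 0.772 and 0.803), and KO 1602 had the highest Arntl of all lungs, 4.57, and the lowest of all hearts, 3.49. Without that mouse, whose heart array stood apart, r was 0.94 over 5 mice, and without KO 1603 alone it was -0.16. A second Arntl probe set, also not kept in both organs, gave r = 0.75. Clock gave r = 0.17 and rho = 0.31 (exact permutation p = 0.707 and 0.564, adjusted 0.772 and 0.634) and Npas2 r = -0.56 and rho = -0.60 (exact permutation p = 0.264 and 0.242, adjusted 0.339 and 0.311). Other Clock probe sets gave -0.19 and 0.13 where kept in both organs, and 0.26 where not. Without the 2 mice farthest from the median r was 0.997 for Arntl, 0.79 for Clock, -0.28 for Npas2, 0.84 for Per3 and 0.96 for Nfil3, each over 4 mice. For Arntl these 4 still held KO 1603, the highest of all hearts at 5.49.

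**Figure D3:**
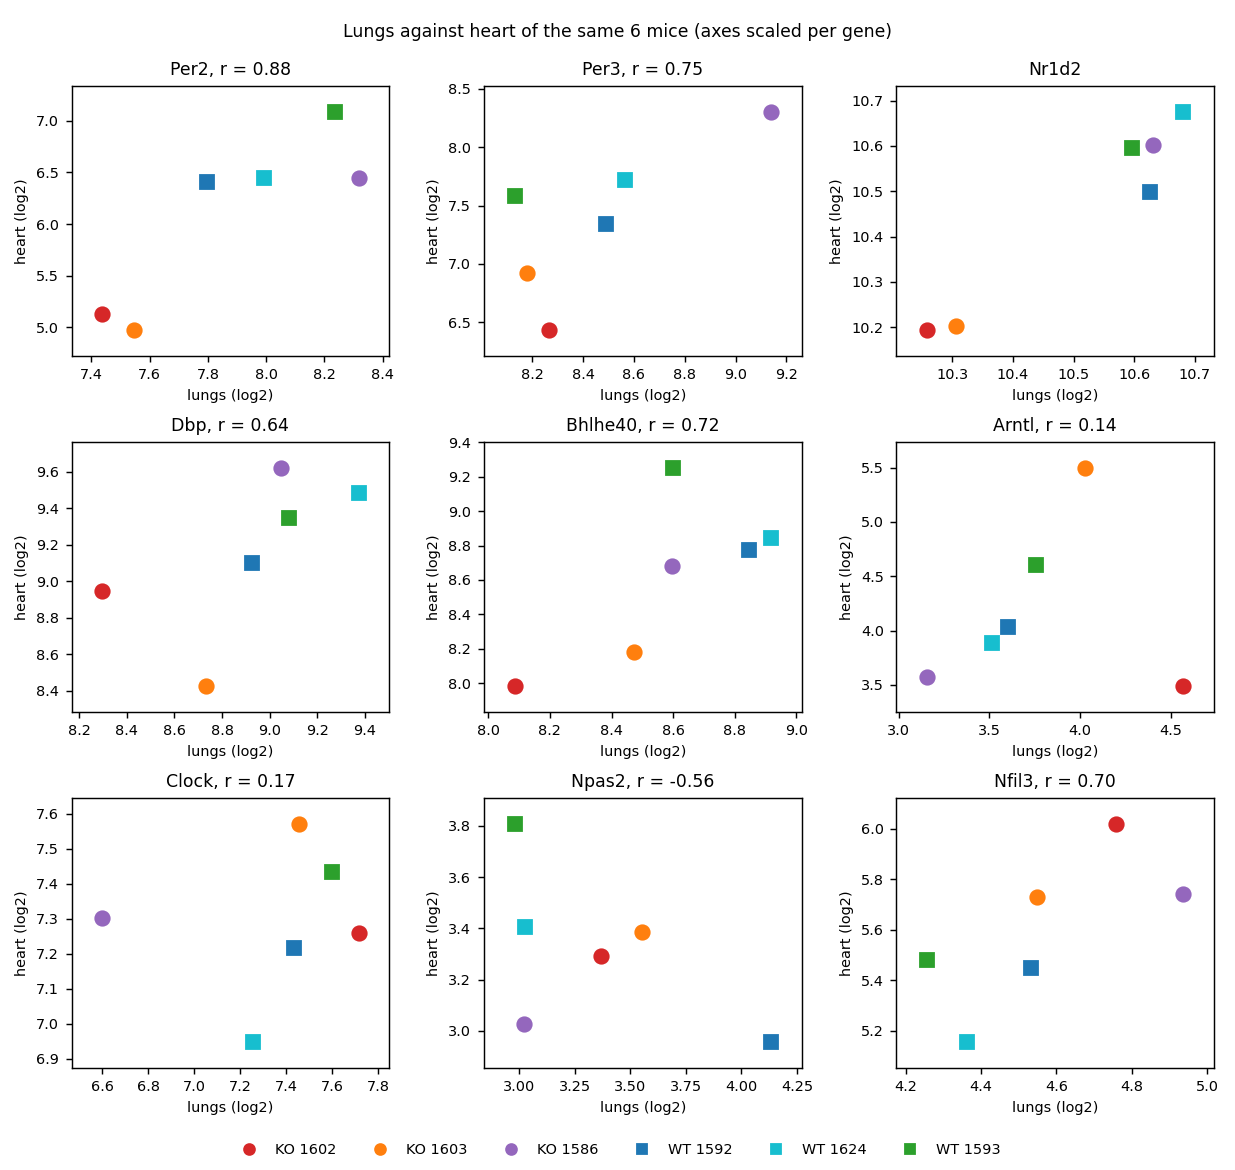
Level in heart (log2, vertical axis) against level in lungs (log2, horizontal axis) for each measured clock gene, 1 point per mouse, with r over 6 mice in the panel titles except for Nr1d2, whose mice fell into 2 clusters. KO 1602 and KO 1603 sit at the lower left for Per2, Nr1d2 and Bhlhe40, and KO 1602 is the point out of line for Arntl.

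To ask whether both organs of a mouse pointed to the same phase of the clock, each gene was centred on its mean over the 6 arrays of an organ. A score per array was then the mean of the 5 measured E-box genes (Per2, Per3, Nr1d2, Dbp and Bhlhe40) minus the mean of Arntl, Clock, Npas2 and Nfil3. It was -0.75 in lungs and -0.52 in heart of KO 1602, and -0.36 and -1.05 in KO 1603. In KO 1586 it was 0.60 and 0.57. The WT mice were at 0.45 and 0.54 (1624), 0.17 and 0.19 (1593), and -0.10 and 0.26 (1592). The score thus had the same sign in lungs and heart of 5 of 6 mice, the exception being WT 1592, whose score was near 0 in lungs.

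The single genes carried the same division. All 5 E-box genes were below the organ mean in both lungs and heart of KO 1602 and KO 1603, and all 5 were above it in both organs of KO 1586 and WT 1624. Over the 54 pairs of a gene and a mouse, lungs and heart lay on the same side of their organ means in 40. This held for 8 of 9 genes in KO 1603, KO 1586 and WT 1624, 6 of 9 in KO 1602 and WT 1593, and 4 of 9 in WT 1592. These pairs come from 6 mice, and no such share over all probe sets was computed. The count and the signs of the score are therefore descriptions only. In lungs of KO 1602 and in heart of KO 1603, all 4 genes of the other side were above the organ mean. In lungs of WT 1624 and heart of WT 1592, all 4 were below it. In heart of KO 1602 only Nfil3 of these 4 was above.

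The KO mice therefore held both the lowest scores and the highest in each organ, with the WT mice between them. In fibroblasts the score stayed within -0.13 and 0.13. Its sign depends on the reference. Centred on the WT mean, the lungs of WT 1592, 1624 and 1593 were at -0.27, 0.28 and -0.0055 and their hearts at -0.069, 0.21 and -0.14. The sign was then the same in both organs of 6 of 6 mice, with the lungs of WT 1593 close to 0. In lungs of KO 1602, 1603 and 1586 the adipocyte mean was 5.54, 10.3 and 10.9, and in their hearts the atrial mean was 5.47, 11.2 and 6.30. The part of these transcripts, and of the heart array of KO 1602, in the scores was not tested.

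**Figure D4:**
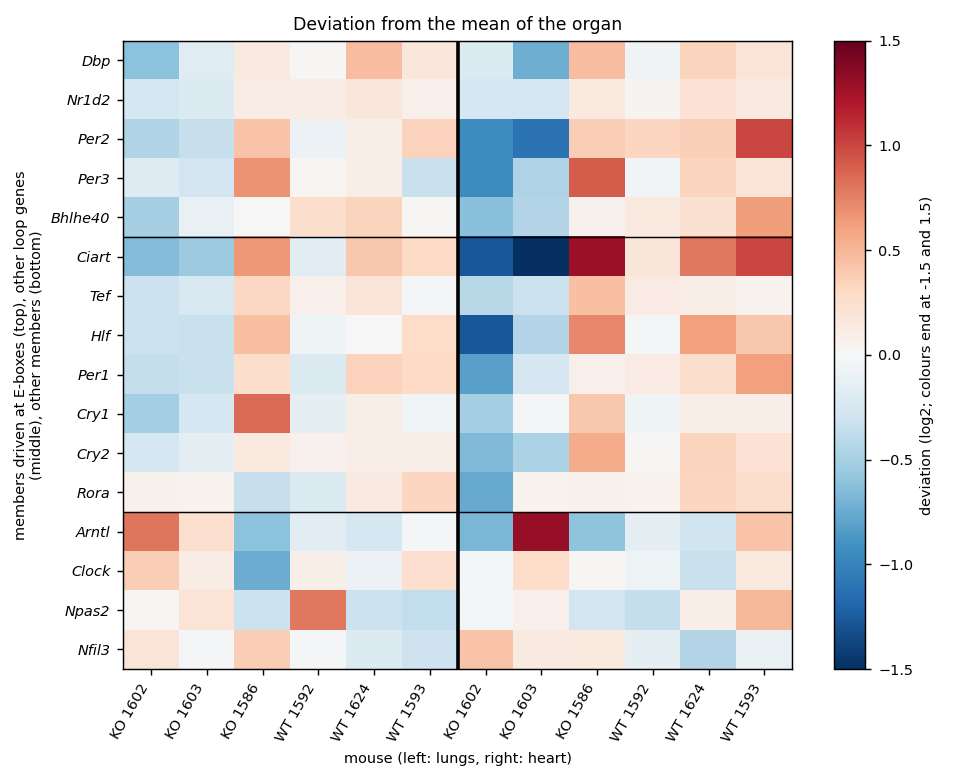
Deviation of each measured clock gene from its mean over the 6 arrays of an organ (log2, colour scale), with mice in order for lungs and heart and the E-box genes listed apart from Arntl, Clock, Npas2 and Nfil3. KO 1602 and KO 1603 are below the mean for all 5 E-box genes in both organs, and KO 1586 and WT 1624 are above it.

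Across the 12 lungs and heart arrays, centred by organ, several E-box genes went together. These correlations are descriptions over arrays that share 6 mice. Dbp followed Nr1d2 (r = 0.89), Nr1d2 followed Bhlhe40 (0.87), and Per2 followed Bhlhe40 (0.86) and Nr1d2 (0.85). With Arntl, r was -0.73 for Dbp, -0.51 for Nr1d2, -0.36 for Per2, -0.35 for Per3 and -0.23 for Bhlhe40. Arntl ran with Clock (0.66), and Bhlhe40 ran against Nfil3 (-0.64). Among 9605 genes, those most like Dbp over the same 12 arrays were Nr1d2 (0.89), Ciart (0.88), Actr3 (0.85), Tmem109 (0.84), Cdkn2aipnl (0.84) and Tef (0.82), so that 3 of the 6 were clock genes. The most opposed to Dbp were D8Ertd738e (-0.82), Ciapin1 (-0.81), Lgals2 (-0.80) and Cyp26b1 (-0.80). Those most like Arntl were Armc6 (0.91), Tmem167 (0.90), Aatf (0.88), Ifit1 (0.86), Asns (0.86) and Josd1 (0.85), with Gtpbp10 (-0.87), Dnpep (-0.85), Gadd45gip1 (-0.81) and Il15 (-0.79) the most opposed, and none of these is a listed clock gene. Arntl itself was not kept by the filter in both organs. Its deviation in heart was 1.31 in KO 1603 and -0.69 in KO 1602, whose array stood apart. Among hearts, the genes most like Arntl were all highest in KO 1603, and all but Asns were lowest in KO 1602.

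Ciart and Tef, chosen here after their values were seen, showed the same mice apart. Ciart was at 5.60, 5.71 and 6.90 in lungs of KO 1602, 1603 and 1586 against 6.08, 6.65 and 6.54 in WT 1592, 1624 and 1593, and at 4.86, 4.13 and 7.41 in their hearts against 6.30, 6.92 and 7.12. KO 1602 and 1603 were the lowest and KO 1586 the highest for Ciart in both organs. Tef was at 10.05, 10.15 and 10.69 in KO lungs against 10.45, 10.57 and 10.35, and at 8.88, 8.97 and 9.74 in KO hearts against 9.42, 9.39 and 9.35. For Tef too, KO 1602 and 1603 were the lowest mice in both organs, and KO 1586 was above every WT mouse. Of 9 measured further loop genes (Per1, Cry1, Cry2, Rora, Rorb, Tef, Hlf, Bhlhe41 and Ciart), 7 were kept in both organs. Their r between lungs and heart over 6 mice had a median of 0.90, and 5 were above 0.8 (Cry2 0.97, Tef 0.97, Ciart 0.94, Cry1 0.90 and Hlf 0.83), a value that 4.45% of all kept probe sets exceeded. Per1 was at 0.78 and Rora at 0.11, and the 2 genes not kept, Rorb and Bhlhe41, were at -0.10 and -0.11. Promoter windows of Ciart, Tef, Per1, Cry1 and Bhlhe41 held CACGTG, and those of Cry2, Hlf, Rora and Rorb did not. A relation between the motif and these values was not tested.

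Between genotypes these further loop genes did not pass either. In limma 0 of 7 tested were called in lungs, 0 of 8 in heart and 0 of 7 in fibroblasts, with 0, 1 and 0 at an unadjusted p under 0.05. In heart all 8 differences were below 0, against a background in which 27.8% of all probe sets were above 0, with Ciart at -1.32 (adjusted p = 0.303), Per1 at -0.66 (0.199), Rora at -0.43 (0.375) and Cry2 at -0.39 (0.440). Without KO heart 1602, a setting chosen after the data were seen, 6 of the 8 were below 0 and the median over the 8 moved from -0.41 to -0.15. Other lists lay below 0 in the same comparison, with no gene of them called. All 8 tested immediate early genes did (median of the 10 measured -0.72), as did all 5 mesothelium markers, at list means of 3.87 to 6.46 in KO and 5.69 to 7.51 in WT, and both blood markers, at 8.71 to 9.23 against 9.64 to 10.7. Atrial markers, given above, were low in KO hearts 1602 and 1586. Their part in the differences of the clock genes was not tested. Between WT tissues, Tef (1.07, adjusted p = 0.000511) and Per1 (1.16, 0.000789) were higher in lungs than in heart, and Rorb was lower (-1.11, 0.00721). Of 12 measured modifiers of clock proteins, 0 of 11 tested were called between KO and WT in each tissue. Of 11 measured rhythmic output genes, 0 of 11 tested were called in lungs, 0 of 10 in heart and 0 of 10 in fibroblasts. Over all probe sets 0.0301%, 0.127% and 0.0549% were called. At an unadjusted limma p under 0.05 there were 3, 4 and 0 outputs and 2, 1 and 0 modifiers, against 6.96%, 17% and 3.33% of all probe sets. Of the outputs tested, 10 of 11 were below 0 in lungs, where 40% of all probe sets were above 0. In heart 8 of 10 were below 0, where 27.8% of all probe sets were above 0, and without KO heart 1602 it was 6 of 10.

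Per1, Per2 and several clock outputs are also induced by glucocorticoid hormone, so genes responsive to it are given beside them. Of 12 such genes, 10 were below 0 in lungs, where 40% of all probe sets were above 0. All 12 were below 0 in heart, where 27.8% of all probe sets were above 0. Fam107a, a stress-inducible gene, was called in both, at -2.07 in lungs (adjusted p = 0.0173) and -2.12 in heart (0.014). Over all probe sets 0.0301% and 0.127% were called. Fkbp5, a co-chaperone of the glucocorticoid receptor, was at -0.94 (0.506) and -1.20 (0.0675). Both organs come from the same mice. With the mouse as the unit, limma called 0 of the 12 on the organ mean (0.00857% of all probe sets). There 7 had an unadjusted p under 0.05, against 13.9% of all probe sets, and Fam107a was at -2.10 (adjusted p = 0.132). Per1 is in this list and in the loop. The part of these genes in the differences of the clock genes was not tested.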

How the data were processed

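The authors deposited a log2 signal for each probe set on each array, read as log2 from its range, and Partek 6.4 is named in the submitters' processing notes. Per the labels' protocols, Trizol extracts were used and biotin-labelled cRNA was made from 6 ug of total RNA. How background, probe summary and normalization were handled is not stated in the sources used here. With no counts or detection calls, precision is limited by how many arrays there are.

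Values were used as deposited. Of 45141 entries, 104 controls were set aside, and genes were named through the array annotation (28898 probe sets with 1 gene, 551 with several, 15588 with none). A model of 6 group means over 16 arrays was fitted with limma 3.58.1 in R 4.3.3 (10 residual and 3.53 prior degrees of freedom), in which lungs and heart of a mouse count as separate samples. Probe sets were kept where the mean of a compared tissue was above the median of all values, 3.79. Two-sided p-values were adjusted over all kept probe sets (Benjamini-Hochberg), with calls at an adjusted p under 0.05. The fit was tested on simulated data. The unit was the mouse for the organ mean and for the exact permutation tests between lungs and heart. Pairing comes from the mouse numbers, and lungs and heart deviations of a mouse correlated with r from 0.0597 to 0.128.

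All 10 clock genes were named. Likeness was ranked against Dbp and Arntl, with the 6 most alike and the 4 most opposed named. Genes of the companion lists were named where called, and otherwise up to 4 per list by unadjusted p on the organ mean; per-mouse values of Ciart and Tef and single correlations were added after their values were seen. The members and lists were chosen with earlier results of these data known. Promoter motifs were counted by exact letters in the RefSeq windows of GRCm38.p6. Alternatives were quantile normalization, other filters, the mean of all probe sets, fits of single tissues, the mouse as a block, and leaving out each array.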

Additional observations from a re-analysis of the deposited data

How the results depend on the processing

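With the mouse as a fixed block on the WT lungs and heart arrays alone, lungs against heart gave 4 clock genes called in place of 2, adding Per3 and Arntl. A random replicate block over all arrays (consensus correlation 0.0542) added neither and changed no count by over 1.5 times. Leaving out 1 array gave 0 to 1 called in KO against WT heart, the 1 being Per2 without KO 1586. Centred on the WT mean, the scores of WT hearts 1592, 1624 and 1593 were -0.069, 0.21 and -0.14.

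The sign turned in differences that had not passed. On the mean of all probe sets Per3 in lungs was -0.066, Nr1d2 in lungs 0.023, Clock in heart -0.063, Clock on the organ mean -0.053 and Nr1d2 in WT lungs against heart -0.29. After quantile normalization Arntl in heart was -0.0094 and Per3 on the organ mean 0.054. Without the 3 lungs arrays high in adipocyte transcripts, an alternative chosen after seeing the data, lungs gave -0.083 for Per3, 0.29 for Clock and 0.36 for Npas2.

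Leaving out 1 array, lungs ranged from -0.17 to 0.31 for Per3 (turning without KO 1586), -0.031 to 0.68 for Arntl (KO 1602), -0.40 to 0.15 for Clock (KO 1586) and -0.27 to 0.31 for Npas2 (KO 1586 or WT 1592). Heart ranged from -0.87 to 0.062 for Per3 (KO 1602), -0.64 to 0.36 for Arntl (KO 1603, WT 1592 or WT 1624) and -0.37 to 0.052 for Npas2 (WT 1593). Fibroblasts ranged from -0.0075 to 0.35 for Per2 and -0.32 to 0.014 for Per3 (both WT 1571), and -0.055 to 0.25 for Nr1d2 (KO 1550 or WT 1623). The organ mean ranged from -0.52 to 0.16 for Per3 (KO 1602 or 1603), -0.20 to 0.50 for Arntl (KO 1603), -0.10 to 0.19 for Clock (KO 1602, KO 1603 or WT 1624) and -0.21 to 0.013 for Npas2 (KO 1586). WT lungs against heart ranged from -0.39 to 0.20 for Npas2 (WT lungs 1624 or 1593, or WT heart 1593) and -0.00057 to 0.088 for Nr1d2 (WT heart 1592). The cause of these turns was not tested. Per2, Dbp, Bhlhe40 and Nfil3 kept their direction in lungs, heart and the organ mean under every alternative run. Arntl and Npas2 lay near the low end of the arrays, which limits what can be read from their sizes.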
